A study of Mus musculus with 10 samples.

Results

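The genes of the unfolded protein response and the integrated stress response were followed as a module of 36 members in mouse mammary epithelial cells. Members were the rows of the count table whose Entrez identifier maps to the listed symbols, 36 of 24454 genes. The rule uses no measured value, but the list was chosen with earlier results of these data known. Shares of members called are therefore descriptive. By role they are 6 regulators (Atf4, Cebpb, Xbp1, Atf6, Eif2ak3 and Ern1), 12 Atf4-type targets (Ddit3, Chac1, Asns, Trib3, Ppp1r15a, Sesn2, Psat1, Phgdh, Slc3a2, Slc7a5, Vldlr and Nupr1), 14 chaperones and folding factors of the endoplasmic reticulum (ER; Hspa5, Dnajb9, Dnajc3, Sdf2l1, Hsp90b1, Calr, Canx, Pdia3, Pdia4, Pdia6, Creld2, Manf, Hyou1 and Dnajb11) and 4 genes of ER-associated degradation (Herpud1, Sel1l, Edem1 and Syvn1). All 36 passed the filter on low counts, which kept 13135 genes.

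The cells were NMuMG/E9, 1 subclone of an epithelial line from normal mouse mammary gland that undergoes epithelial-mesenchymal transition when given TGFbeta. RNA of 10 samples was sequenced in 4 groups. These were siIrf1 TGFbeta (an siRNA against the transcription factor Irf1 and 2 ng/ml recombinant human TGFbeta1 for 2 d, replicates 1, 2 and 3), siCtr TGFbeta (a control siRNA and the same cytokine, replicates 2 and 3), siIrf1 0 d (no TGFbeta, replicates 1, 2 and 3) and siCtr 0 d (control siRNA, no TGFbeta, replicates 1 and 3). All groups, controls included, carried siRNA at 20 nM and were harvested 3 d after transfection, and values below follow this order of groups and replicates. Titles add a code (e2, e3 or e4) that goes with the replicate number and whose meaning is not stated. Nothing in the labels says that replicates came from separate cultures, and the spread that p-values rest on may therefore be technical.

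When unfolded proteins build up in the ER, the sensors Eif2ak3 (PERK), Ern1 (IRE1) and Atf6 start 3 parallel arms. PERK phosphorylates eIF2alpha, which lowers general translation while favouring that of Atf4, a transcription factor that induces genes of amino acid synthesis, amino acid uptake and redox balance. The same Atf4 program answers shortage of amino acids or haem and viral stress through other eIF2alpha kinases. The response to all these kinases, PERK included, is called the integrated stress response. IRE1 splices the mRNA of Xbp1, and spliced Xbp1 and cleaved Atf6 induce chaperones and the machinery that exports misfolded proteins for degradation. Counts per gene do not show Xbp1 splicing, Atf4 translation or protein phosphorylation.

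The arms are known for different promoter elements, and the members' promoters are shown here because the comparison of Atf4-type targets with chaperones rests on that division. RefSeq promoters of build GRCm38.p6, 250 bases before to 50 bases after a gene's start, were found for 32 of 36 members (not for Atf6, Slc7a5, Manf and Hyou1). The C/EBP-ATF response element, spelled TGATGNAAN and searched on both strands, was present in 5 of 11 Atf4-type genes with an entry (Chac1, Asns, Trib3, Vldlr and Nupr1), in 0 of 12 chaperones, and in 4.5% of all 27025 genes of the table. The ER stress response element, CCAAT and CCACG with 9 bases between them, was present in 7 of 12 chaperones (Hspa5, Dnajc3, Hsp90b1, Calr, Canx, Pdia6 and Creld2), in 0 of 11 Atf4-type genes and in 0.137% of all genes. A match describes these letters only and shows no binding. Capitals below mark the C/EBP-ATF element with 15 bases on either side, each read on the strand that carries it, minus for Chac1 (chr2:119351033-119351071), Asns (chr6:7693209-7693247) and Vldlr (chr19:27216804-27216842) and plus for Nupr1 (chr7:126625558-126625596).
Chac1: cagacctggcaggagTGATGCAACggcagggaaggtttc
Asns: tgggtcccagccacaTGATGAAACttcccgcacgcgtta
Vldlr: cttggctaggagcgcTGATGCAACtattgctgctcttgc
Nupr1: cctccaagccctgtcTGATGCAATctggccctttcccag

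Capitals in the next lines mark the ER stress response element of 4 chaperones and of Syvn1, a ubiquitin ligase of ER-associated degradation. They lie on the plus strand for Hspa5 (chr2:34772010-34772058), Dnajc3 (chr14:118937812-118937860), Hsp90b1 (chr10:86705518-86705566, the nearer of its 2 matches) and Syvn1 (chr19:6046517-6046565) and on the minus strand for Canx (chr11:50325785-50325833). Distances before the gene's start were 65 bases in Hspa5, 105 in Dnajc3, 107 in Hsp90b1, 145 in Canx and 44 in Syvn1.
Hspa5: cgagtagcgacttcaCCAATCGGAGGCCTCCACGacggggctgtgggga
Dnajc3: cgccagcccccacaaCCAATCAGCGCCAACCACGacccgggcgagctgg
Hsp90b1: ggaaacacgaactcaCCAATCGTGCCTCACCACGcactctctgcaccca
Canx: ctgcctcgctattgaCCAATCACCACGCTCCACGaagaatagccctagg
Syvn1: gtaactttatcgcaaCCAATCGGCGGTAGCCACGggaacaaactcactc

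Herpud1 was the 1 member whose promoter held elements of both kinds, a C/EBP-ATF element 113 bases before its start and the ER stress response element II (ATTGG and CCACG with 1 base between, present in 0.0444% of all genes) 52 bases before it. It is shown because its response to TGFbeta differed most between the siRNAs, as described below. The line gives the 140 bases directly before the start on the plus strand (chr8:94386289-94386428), where the first capitals are the C/EBP-ATF element as its reverse complement and the second the ER stress response element II.
Herpud1: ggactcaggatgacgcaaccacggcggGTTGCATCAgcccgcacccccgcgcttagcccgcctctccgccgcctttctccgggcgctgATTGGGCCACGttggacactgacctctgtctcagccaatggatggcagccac

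Levels are given in CPM, counts scaled to a common library size, and changes as log2 fold changes ± SE from edgeR with Benjamini-Hochberg adjusted p. "Rose" and "fell" are used where that p is under 0.05. The fits below that left out 1 library include, for each comparison of groups, fits without a library of another group. Such fits keep every library of the comparison. They can alter a call through the spread that p-values rest on or through scaling, but are no independent check of the change itself. Irf1 itself was at 36.5, 46.2 and 41.0 CPM in siIrf1 TGFbeta, 106 and 112 CPM in siCtr TGFbeta, 56.4, 64.1 and 57.7 CPM in siIrf1 0 d and 148 and 129 CPM in siCtr 0 d, lower in each siIrf1 than in each siCtr library. Libraries held 27547649 to 67301646 counts. They differed in how level went with the GC content of transcripts. A GC index, in which a positive value means that genes of low GC content stood higher against those of high GC content on a log2 scale, was 0.66, -0.39 and 0.77 in siIrf1 TGFbeta, -0.46 and -0.46 in siCtr TGFbeta, 0.74, 0.19 and 0.93 in siIrf1 0 d and -1.37 and -0.61 in siCtr 0 d. The index thus moves with the siRNA. By it siIrf1 TGFbeta replicate 2 differs from the others of its group, and siCtr 0 d replicate 1 is the lowest of all libraries. These are called below the libraries that stand apart, though with 2 libraries in siCtr 0 d neither can be told to be the odd one. Leaving both out leaves siCtr 0 d with 1 library, and comparisons with siCtr 0 d then rest on that library. Atf4-type targets had a median GC content of 54.5% (43.8 to 58.7%) and chaperones one of 48.2% (40.6 to 56.7%). Results are therefore also given with a length and GC trend removed, for many but not all of the calls that this changes. The part of the index in the results was not tested beyond that fit. Of 7 epithelial markers Krt8, Krt18, Cdh1 and Tjp1 were at 68.4 CPM or more in every library, while Cldn3, Cldn7 and Epcam were at or under 0.0295 CPM. Their summed level was 6370 to 10300 CPM in siIrf1 TGFbeta, 12600 to 13500 in siCtr TGFbeta, 6360 to 6960 in siIrf1 0 d and 6970 to 8240 in siCtr 0 d. Krt8 and Krt18 make up most of that sum, while Cdh1 averaged 351 CPM in siCtr TGFbeta and 640 CPM in siCtr 0 d. Fibroblast and pericyte markers summed to 27.2 to 38.9 CPM with TGFbeta and to 1.07 CPM or less without it, immune markers to at most 6.83 CPM, endothelial to at most 5.92 and adipocyte to at most 0.167. The part of these levels in the results was not tested.

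TGFbeta in cells with the control siRNA parted the classes. Of the 12 Atf4-type targets 7 fell and 2 rose, whereas 5 of the 14 chaperones rose and 0 fell by edgeR (unadjusted p under 0.05 for 1 fall, DESeq2 1 fall). Psat1, an enzyme of serine synthesis, averaged 369 ± 51.4 CPM in siCtr TGFbeta and 1500 ± 369 CPM in siCtr 0 d (SD, n = 2 each). Hspa5 (BiP), the main ER chaperone of the Hsp70 family, averaged 1030 ± 130 CPM in siCtr TGFbeta and 490 ± 182 CPM in siCtr 0 d (SD, n = 2 each). Over all 36 members 7 rose and 9 fell, or 19.4% and 25%, against 16.1% and 16.3% of all genes tested (32.5% in either direction), so the module as a whole is near the background and the classes differ from it in opposite directions. Medians of the log2 fold change were -0.76 for Atf4-type targets and 0.48 for chaperones, against 0.02 for all genes. With the GC trend removed 13 members rose and 9 fell, among them 9 rises of chaperones, against 23% and 19.7% of all genes in that fit. A fit of the siCtr libraries alone called 3 rises and 8 falls, against 13.2% and 14% of all genes in that fit. Among them were rises of 1 of the 14 chaperones and falls of 6 of the 12 Atf4-type targets. The share of chaperones that rose was thus not above the background there, while that of Atf4-type targets that fell was. Without both libraries that stand apart 9 rose and 9 fell, against 16.4% and 14.9% of all genes. In bulk RNA a level that is lower in every cell and one that is lower in fewer cells cannot be told apart.

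With Irf1 knocked down, TGFbeta moved few members. Of all 36, 5 rose and 2 fell, or 13.9% and 5.56%, against 11.6% and 9.71% of all genes (21.3% in either direction), which is near the background. Nupr1, a small stress-induced chromatin protein, averaged 49.6 ± 0.166 CPM in siIrf1 TGFbeta and 8.03 ± 0.373 CPM in siIrf1 0 d (SD, n = 3 each), the largest log2 fold change of any member in the 5 comparisons. Of the chaperones 1 rose (Pdia4), and 13 of the 14 had a log2 fold change above 0 with a median of 0.29, against 0.02 for all genes. Replicate numbers pair these groups by the data; fitted as pairs, Chac1 (0.65, adjusted p = 0.0417) and Edem1 (0.48, adjusted p = 0.0273) were called higher as well and Asns lower (-0.46, adjusted p = 0.0355). With the GC trend removed 12 members rose and 4 fell, with 6 chaperones among the rises, against 15.9% and 16.4% of all genes in that fit. Leaving out both libraries that stand apart gave 11 rises and 5 falls, against 19.6% and 16.8% of all genes.

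Knockdown of Irf1 without TGFbeta lowered 7 of the 12 Atf4-type targets and raised 0 (DESeq2 0, unadjusted p under 0.05 for 0 rises). Of all 36 members 15 fell and 2 rose, or 41.7% and 5.56%, against 15.5% and 16.3% of all genes (31.8% in either direction). The falls were 7 of 12 Atf4-type targets, 4 of 6 regulators, 3 of 4 genes of ER-associated degradation and 1 of 14 chaperones. Slc7a5, the amino acid carrier of the LAT1 transporter, averaged 175 ± 20.2 CPM in siIrf1 0 d (SD, n = 3) and 614 ± 88.9 CPM in siCtr 0 d (SD, n = 2). Chac1, which degrades glutathione, averaged 19.9 ± 1.76 CPM in siIrf1 0 d and 90.5 ± 13.7 CPM in siCtr 0 d (SD, n = 3 and 2). Here the GC index differed most, and with its trend removed 12 members fell and 4 rose, among them 7 falls and 2 rises of Atf4-type targets, against 14.2% and 22.7% of all genes. These 7 falls were not the same genes as before, since Slc3a2 was lost and Vldlr (-0.35) was gained. The 2 rises were Ppp1r15a (0.45) and Sesn2 (0.38). That fit moved the median of all genes to 0.14, against -0.03 as deposited, so its values are to be read against 0.14. Same-numbered libraries of these groups also went together in the data. With replicate numbers as a block 18 members fell and 4 rose, and the median of all members was -0.49, against -0.05 for all genes. The share of all genes called in the block fit is not given here, so these counts have no background beside them. Without both libraries that stand apart 13 fell and 1 rose, against 12.8% and 13% of all genes.

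With TGFbeta present, 10 members were lower in siIrf1 than in siCtr cells and 1 was higher. These were 27.8% and 2.78% of the members, against 8.28% and 9.72% of all genes (18.0% in either direction). The falls were 5 of 12 Atf4-type targets, 2 of 6 regulators, 2 of 14 chaperones and 1 of 4 genes of ER-associated degradation, and the rise was that of Herpud1. Chac1 averaged 31.7 ± 9.27 CPM in siIrf1 TGFbeta and 78.7 ± 7.50 CPM in siCtr TGFbeta (SD, n = 3 and 2). The falls numbered 3, 2 and 3 without siCtr TGFbeta replicate 2, siCtr TGFbeta replicate 3 or siIrf1 TGFbeta replicate 1. With the GC trend removed 11 members fell and 3 rose, against 10.9% and 15.9% of all genes in that fit. Leaving out both libraries that stand apart gave 17 falls and 4 rises, against 17.4% and 19.2% of all genes. A fit of the TGFbeta libraries alone gave 4 falls and 0 rises, against 6.34% and 6.08% of all genes (unadjusted p under 0.05 for 2 rises in the fit of all libraries, DESeq2 1 rise).

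The interaction, the TGFbeta effect in siIrf1 cells minus that in siCtr cells, passed for 3 members, Slc7a5, Nupr1 and Herpud1, all positive. That is 8.33% of the members with a positive and 0% with a negative call, against 2.8% and 1.32% of all genes (4.12% in either direction). With an unadjusted p under 0.05 there were 9 positive and 1 negative members, and DESeq2 called 5 positive and 0 negative. The Atf4-type targets had a median interaction of 0.72 and the chaperones one of -0.16, against 0.03 for all genes. With the GC trend removed 5 members were positive and 2 negative, with medians of 0.47 and -0.29 against -0.06, and 4.82% and 4.06% of all genes were called in that fit.

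**Figure D1:**
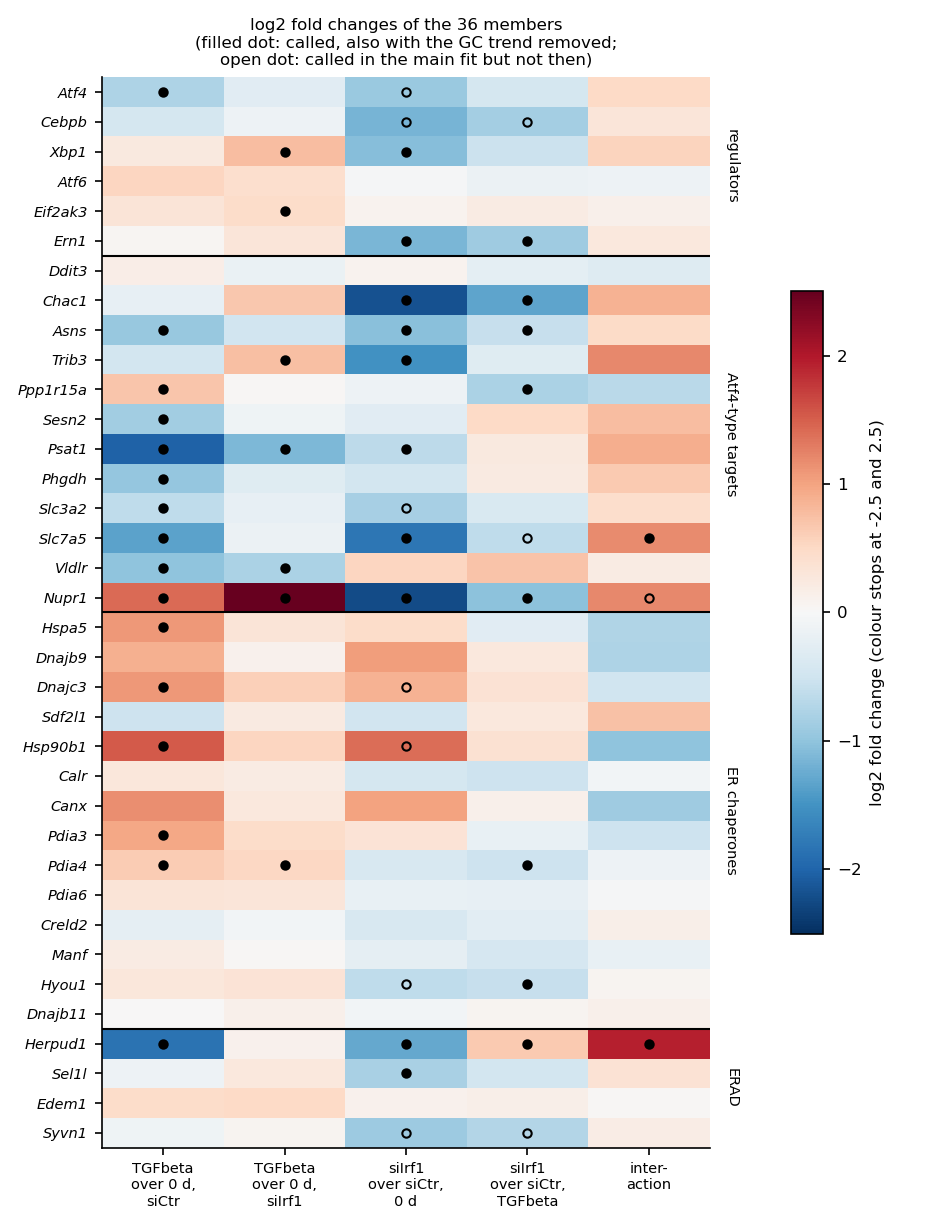
log2 fold changes (colour) of the 36 members, 1 row each grouped by role, in the 5 comparisons (columns, each with the group over its reference; the last column is the difference of the TGFbeta effects). A dot marks an adjusted p under 0.05, filled where the rounded value with the GC trend removed is also under 0.05. Blue dominates the Atf4-type rows for TGFbeta in siCtr cells and for siIrf1 at 0 d. For TGFbeta in siCtr cells 5 chaperone rows are red with a filled dot.

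Among the regulators, Atf4 was at 428, 482 and 410 CPM in siIrf1 TGFbeta and 570 and 619 CPM in siCtr TGFbeta. Atf4 without TGFbeta was at 579, 509 and 528 CPM in siIrf1 0 d and 1130 and 921 CPM in siCtr 0 d. Both siCtr 0 d libraries were above all others, and both siIrf1 groups were below the siCtr group of the same condition. Atf4 mRNA fell with TGFbeta in siCtr cells (-0.78 ± 0.162, adjusted p = 0.0044) and with siIrf1 without TGFbeta (-0.93 ± 0.145, adjusted p = 0.00188). The change with siIrf1 did not pass with the GC trend removed (-0.33, adjusted p = 0.0865). Atf4 did not pass in siIrf1 cells with TGFbeta over 0 d (-0.29 ± 0.131, adjusted p = 0.157) or with siIrf1 under TGFbeta (-0.43 ± 0.145, adjusted p = 0.0659). Under TGFbeta it was called lower with siIrf1 without siIrf1 TGFbeta replicate 2 (-0.50, adjusted p = 0.0409). The same held without siCtr 0 d replicate 1 or 3 (-0.48 each) or both libraries that stand apart (-0.57). Without both, it was also called lower with TGFbeta in siIrf1 cells (-0.38). The fall with TGFbeta in siCtr cells was lost without replicate 1 (-0.59) of siCtr 0 d or replicate 2 (-0.63) of siCtr TGFbeta.

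Xbp1, which encodes the transcription factor activated by IRE1 splicing, was at 74.7, 85.8 and 91.0 CPM in siIrf1 TGFbeta and 111 and 131 CPM in siCtr TGFbeta. Xbp1 without TGFbeta was at 45.8, 45.9 and 54.4 CPM in siIrf1 0 d and 119 and 86.2 CPM in siCtr 0 d. The siIrf1 0 d libraries were the 3 lowest of all 10. Xbp1 fell with siIrf1 without TGFbeta (-1.07 ± 0.181, adjusted p = 0.00263) and rose with TGFbeta in siIrf1 cells (0.78 ± 0.165, adjusted p = 0.00636), and both calls held in each of the 10 fits that left out 1 library. In siCtr cells the TGFbeta change was 0.24 ± 0.201 (adjusted p = 0.387; 0.61 and 0.013 with the GC trend removed). The interaction of 0.55 ± 0.259 did not pass (adjusted p = 0.301). Under TGFbeta Xbp1 was not called with siIrf1 in the fit of all libraries. There it was called lower without siCtr 0 d replicate 1 or 3 (-0.57 each), and was at -0.61 without both libraries that stand apart.

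Ern1, the kinase and nuclease IRE1 that splices Xbp1, was at 19.4, 17.3 and 25.7 CPM in siIrf1 TGFbeta and 38.4 and 37.8 CPM in siCtr TGFbeta. Ern1 without TGFbeta was at 17.2, 18.4 and 14.7 CPM in siIrf1 0 d and 39.0 and 35.4 CPM in siCtr 0 d. Every siIrf1 library was below every siCtr library. Ern1 fell with siIrf1 in 0 d cells (-1.15 ± 0.2, adjusted p = 0.00298) and under TGFbeta (-0.88 ± 0.199, adjusted p = 0.0134), while TGFbeta left it at 0.04 ± 0.221 in siCtr cells (adjusted p = 0.915). The fall under TGFbeta was lost without replicate 2 (-0.92) or 3 (-0.93) of siCtr TGFbeta or replicate 1 (-0.83) of siIrf1 TGFbeta, and in the fit of the TGFbeta libraries alone (adjusted p = 0.0514).

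Cebpb, a partner of Atf4 on C/EBP-ATF elements, was at 11.9, 16.8 and 11.3 CPM in siIrf1 TGFbeta and 25.5 and 22.6 CPM in siCtr TGFbeta. Cebpb without TGFbeta was at 13.8, 17.3 and 12.6 CPM in siIrf1 0 d and 33.0 and 32.2 CPM in siCtr 0 d. Again all siIrf1 libraries were below all siCtr libraries. It fell with siIrf1 without TGFbeta (-1.16 ± 0.22, adjusted p = 0.00443) and under TGFbeta (-0.85 ± 0.221, adjusted p = 0.0245), but at 67.2% its transcript has the highest GC content of the module, and neither call held with the GC trend removed (-0.54 and -0.55, adjusted p = 0.0543 and 0.0607). Under TGFbeta the call was also lost in the fit of the TGFbeta libraries alone and without replicate 2 (-0.81) or 3 (-0.97) of siCtr TGFbeta or replicate 1 (-0.77) or 3 (-0.74) of siIrf1 TGFbeta. Tmem189 on the other strand shares 312 exon bases, or 20.7% of those of Cebpb, and strand use in counting is not given, so its counts are uncertain.

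Eif2ak3, the sensor kinase PERK, was at 107, 105 and 114 CPM in siIrf1 TGFbeta and 91.4 and 96.5 CPM in siCtr TGFbeta. Eif2ak3 without TGFbeta was at 82.6, 78.2 and 78.2 CPM in siIrf1 0 d and 76.6 and 73.3 CPM in siCtr 0 d. The TGFbeta libraries were above the 0 d libraries with either siRNA. It rose with TGFbeta in siIrf1 cells (0.45 ± 0.116, adjusted p = 0.0187). The call was lost without replicate 1 (0.47) or 3 (0.43) of siIrf1 0 d or replicate 1 (0.46) of siIrf1 TGFbeta. In siCtr cells it did not pass (0.33 ± 0.142, adjusted p = 0.103; 0.34 and 0.0292 with the GC trend removed), and 8.05% of its exon bases are shared with Gm43292 on the other strand. With the GC trend removed, 3 of the 6 regulators were called lower and 1 higher with siIrf1 without TGFbeta. Atf6 and Eif2ak3 were both among these 4. Atf6, the sensor whose cleaved form induces chaperones, ranged over 55.1 to 93.6 CPM. By edgeR with all libraries as deposited it passed in no comparison (log2 fold changes of -0.14 to 0.54, adjusted p of 0.0958 or more). It was called higher with TGFbeta in siIrf1 cells without siIrf1 TGFbeta replicate 2 (0.61, adjusted p = 0.0103) or both libraries that stand apart (0.59, adjusted p = 0.00292). In siCtr cells it was called higher with TGFbeta without siCtr 0 d replicate 3 (0.83, adjusted p = 0.0361) or siIrf1 TGFbeta replicate 2 (0.54, adjusted p = 0.0195).

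**Figure D2:**
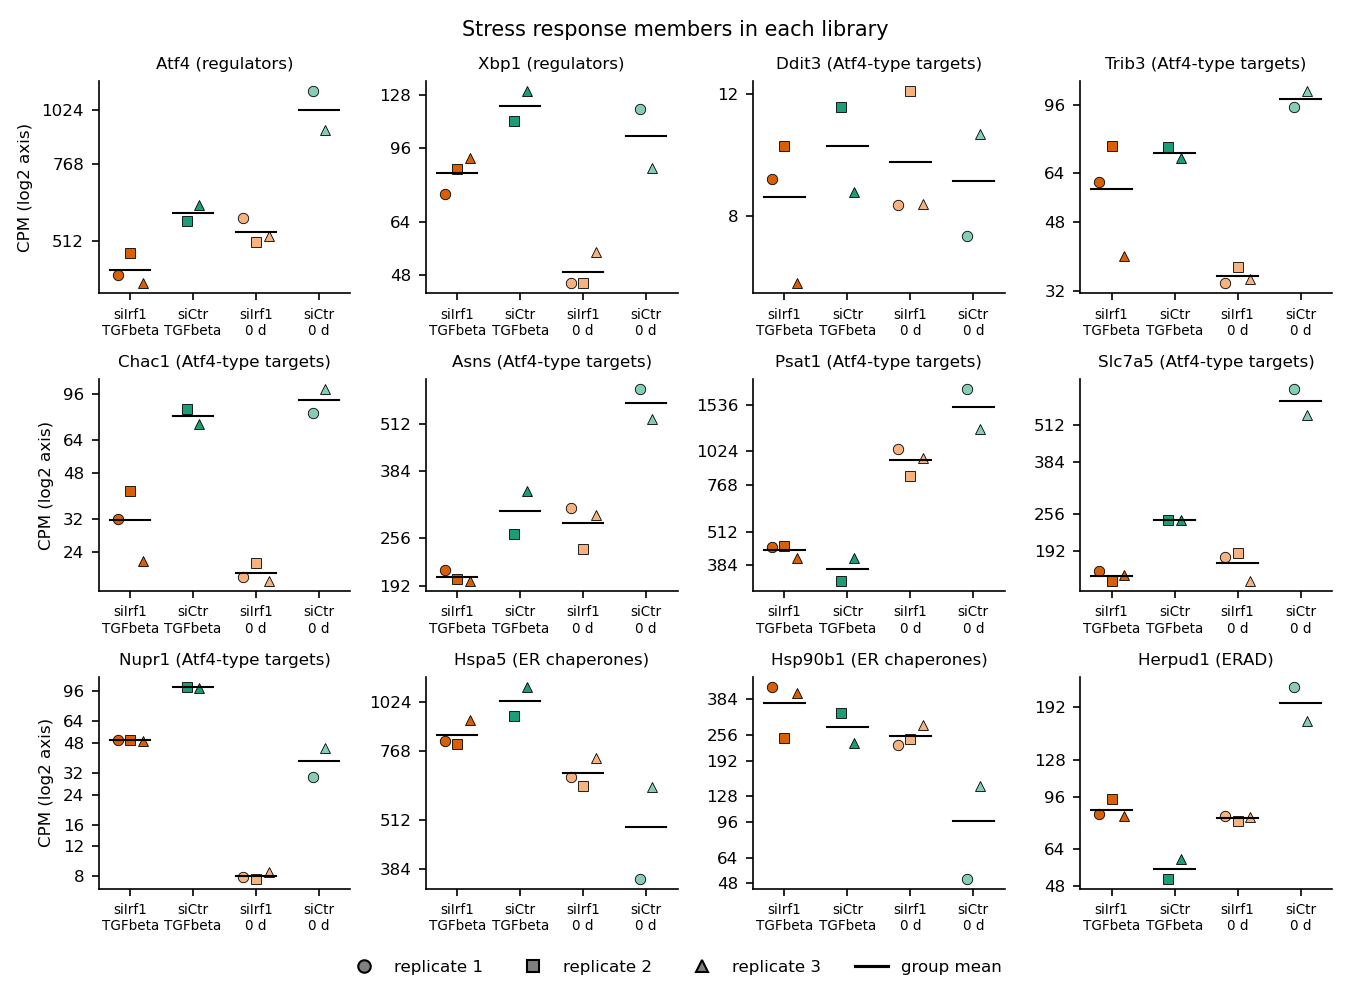
CPM (log2 axis, scaled per panel) of 12 members, 1 point per library; groups run along the horizontal axis, shapes give replicate 1, 2 or 3, and bars are group means. Both siCtr 0 d libraries lie above the other 8 in Atf4, Asns, Slc7a5 and Herpud1, the 3 siIrf1 0 d libraries lie lowest in Nupr1, and siCtr 0 d replicate 1 is the lowest library in Hspa5 and Hsp90b1.

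Of the Atf4-type targets that carry amino acids, Slc7a5 was at 165, 152 and 159 CPM in siIrf1 TGFbeta and 245 and 244 CPM in siCtr TGFbeta. Slc7a5 without TGFbeta was at 184, 190 and 152 CPM in siIrf1 0 d and 677 and 551 CPM in siCtr 0 d. The siCtr libraries were above all siIrf1 libraries, and siCtr 0 d was far above siCtr TGFbeta. Slc7a5 fell with siIrf1 without TGFbeta (-1.81 ± 0.149, adjusted p = 1.51e-04) and with TGFbeta in siCtr cells (-1.33 ± 0.168, adjusted p = 2.19e-04), both in all 10 fits that left out 1 library. TGFbeta in siIrf1 cells left it at -0.14 ± 0.135 (adjusted p = 0.53), and the TGFbeta effects differed (interaction 1.18 ± 0.214, adjusted p = 0.0137). That interaction was lost without replicate 1 (0.99) of siCtr 0 d or replicate 2 (1.09) or 3 (1.10) of siCtr TGFbeta. Its fall with siIrf1 under TGFbeta (-0.63 ± 0.149, adjusted p = 0.0165) was lost with the GC trend removed (-0.28, adjusted p = 0.195) and without replicate 2 (-0.68) or 3 (-0.67) of siCtr TGFbeta.

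Slc3a2, the heavy chain that pairs with Slc7a5, ranged over 273 to 729 CPM and was highest in both siCtr 0 d libraries. It fell with TGFbeta in siCtr cells (-0.64 ± 0.183, adjusted p = 0.0229), a call lost without replicate 1 (-0.51) or 3 (-0.60) of siCtr 0 d or replicate 2 (-0.58) or 3 (-0.53) of siCtr TGFbeta. It also fell with siIrf1 without TGFbeta (-0.83 ± 0.165, adjusted p = 0.00545), but not with the GC trend removed (-0.32, adjusted p = 0.0644). Under TGFbeta it was called lower with siIrf1 without siIrf1 TGFbeta replicate 2 (-0.51, adjusted p = 0.0442), but not with all libraries.

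Of the enzymes of amino acid synthesis, Psat1 was at 449, 453 and 409 CPM in siIrf1 TGFbeta and 333 and 406 CPM in siCtr TGFbeta. Psat1 without TGFbeta was at 1050, 825 and 971 CPM in siIrf1 0 d and 1760 and 1240 CPM in siCtr 0 d, so that all TGFbeta libraries were below all 0 d libraries. It fell with TGFbeta in siCtr cells (-2.02 ± 0.208, adjusted p = 5.62e-05) and in siIrf1 cells (-1.12 ± 0.166, adjusted p = 8.11e-04), in all 10 fits that left out 1 library, and the difference of these effects did not pass (0.90 ± 0.26, adjusted p = 0.0916). Its fall with siIrf1 without TGFbeta (-0.66 ± 0.181, adjusted p = 0.0209) was lost without replicate 1 (-0.40) of siCtr 0 d or replicate 2 (-0.57) or 3 (-0.68) of siIrf1 0 d. Under TGFbeta siIrf1 left it at 0.24 ± 0.184 (adjusted p = 0.425).

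Asns, asparagine synthetase, was at 211, 200 and 197 CPM in siIrf1 TGFbeta and 263 and 340 CPM in siCtr TGFbeta. Asns without TGFbeta was at 308, 239 and 294 CPM in siIrf1 0 d and 633 and 527 CPM in siCtr 0 d. The siCtr 0 d libraries stood highest and the siIrf1 TGFbeta libraries lowest, without overlap. Asns fell with siIrf1 without TGFbeta (-1.05 ± 0.167, adjusted p = 0.00204) and with TGFbeta in siCtr cells (-0.95 ± 0.187, adjusted p = 0.00345), the second lost without replicate 2 (-0.68) of siCtr TGFbeta. Its fall with siIrf1 under TGFbeta (-0.57 ± 0.168, adjusted p = 0.0404) was lost in the fit of the TGFbeta libraries alone and without replicate 1 (-0.57) or 3 (-0.57) of siIrf1 0 d, replicate 3 (-0.42) of siCtr TGFbeta or replicate 1 (-0.60), 2 (-0.56) or 3 (-0.55) of siIrf1 TGFbeta.

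Phgdh, the entry enzyme of serine synthesis, ranged over 177 to 489 CPM and fell with TGFbeta in siCtr cells (-0.97 ± 0.331, adjusted p = 0.0478). That call was lost without replicate 1 (-0.93) or 3 (-0.85) of siCtr 0 d, replicate 1 (-0.97), 2 (-0.97) or 3 (-0.97) of siIrf1 0 d, replicate 2 (-1.01) or 3 (-0.78) of siCtr TGFbeta or replicate 1 (-0.97) of siIrf1 TGFbeta. Processed pseudogenes match its transcript at 95.5 to 98.7% identity, and its counts are uncertain. In the other comparisons its log2 fold change was -0.45 to 0.66 and did not pass.

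Chac1 was at 32, 40.8 and 22.2 CPM in siIrf1 TGFbeta and 84.1 and 73.4 CPM in siCtr TGFbeta. Chac1 without TGFbeta was at 19.3, 21.9 and 18.6 CPM in siIrf1 0 d and 80.8 and 100 CPM in siCtr 0 d. All siCtr libraries were above all siIrf1 libraries, with or without TGFbeta. Chac1 fell with siIrf1 without TGFbeta (-2.18 ± 0.238, adjusted p = 4.79e-04) and under TGFbeta (-1.31 ± 0.236, adjusted p = 0.00463), in all 10 fits that left out 1 library and with the GC trend removed (-1.57 and -1.07). The TGFbeta changes were -0.20 ± 0.261 in siCtr cells (adjusted p = 0.579) and 0.67 ± 0.216 in siIrf1 cells (adjusted p = 0.0517). In siIrf1 cells Chac1 was called higher without siCtr 0 d replicate 1 or 3 (0.67 each) or siIrf1 TGFbeta replicate 3 (0.87, adjusted p = 0.00759).

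Trib3, a pseudokinase that dampens Atf4 and Akt signalling, was at 60.8, 75.1 and 39.4 CPM in siIrf1 TGFbeta and 74.6 and 70.1 CPM in siCtr TGFbeta. Trib3 without TGFbeta was at 33.4, 36.9 and 34.2 CPM in siIrf1 0 d and 94.7 and 104 CPM in siCtr 0 d. The siIrf1 0 d libraries were the lowest of all, while the TGFbeta groups overlapped. It fell with siIrf1 without TGFbeta (-1.51 ± 0.231, adjusted p = 0.00168; -0.88 with the GC trend removed) and not under TGFbeta (-0.31 ± 0.232, adjusted p = 0.421). Trib3 rose with TGFbeta in siIrf1 cells (0.75 ± 0.21, adjusted p = 0.0284), but not in the fit of the siIrf1 libraries alone (adjusted p = 0.0624), nor without replicate 1 (0.72), 2 (0.79) or 3 (0.73) of siIrf1 0 d, replicate 2 (0.75) or 3 (0.75) of siCtr TGFbeta or replicate 1 (0.72) or 2 (0.52) of siIrf1 TGFbeta. Its interaction of 1.21 ± 0.331 did not pass (adjusted p = 0.0794; 0.83 and 0.0498 with the GC trend removed).

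Nupr1 was at 49.8, 49.6 and 49.5 CPM in siIrf1 TGFbeta and 102 and 100 CPM in siCtr TGFbeta. Nupr1 without TGFbeta was at 7.94, 7.71 and 8.44 CPM in siIrf1 0 d and 30.5 and 44.8 CPM in siCtr 0 d. The 4 groups did not overlap, with siCtr TGFbeta highest and siIrf1 0 d lowest. It was unlike most other Atf4-type targets in rising with TGFbeta in siCtr cells (1.42 ± 0.199, adjusted p = 4.13e-04) and in siIrf1 cells (2.63 ± 0.171, adjusted p = 4.97e-06). Knockdown of Irf1 lowered it without TGFbeta (-2.23 ± 0.18, adjusted p = 1.51e-04) and under TGFbeta (-1.03 ± 0.176, adjusted p = 0.00366). These 4 calls held in all 10 fits that left out 1 library and with the GC trend removed. The interaction (1.20 ± 0.254, adjusted p = 0.0295) was lost with the GC trend removed (1.06, adjusted p = 0.0919) and without replicate 3 (0.78) of siCtr 0 d, replicate 1 (1.19), 2 (1.17) or 3 (1.24) of siIrf1 0 d, replicate 2 (1.14) or 3 (1.12) of siCtr TGFbeta or replicate 1 (1.20) of siIrf1 TGFbeta.

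Ddit3, which encodes the death-promoting factor CHOP downstream of PERK, was at 9.06, 10.1 and 6.41 CPM in siIrf1 TGFbeta and 11.5 and 8.66 CPM in siCtr TGFbeta. Ddit3 without TGFbeta was at 8.32, 12.1 and 8.34 CPM in siIrf1 0 d and 7.50 and 10.5 CPM in siCtr 0 d. All 4 groups overlapped. Its log2 fold changes were -0.24 to 0.16 in the 4 comparisons of groups (adjusted p of 0.629 or more), and the interaction was -0.33 ± 0.4 (adjusted p = 0.698). This much used marker of unresolved ER stress was thus not called in the libraries in which Chac1 and Trib3 fell, and 3.97% of its exon bases are shared with Mars on the other strand.

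Ppp1r15a (GADD34), which recruits the phosphatase that reverses eIF2alpha phosphorylation, was at 41.7, 48.9 and 34.6 CPM in siIrf1 TGFbeta and 79.7 and 64.6 CPM in siCtr TGFbeta. Ppp1r15a without TGFbeta was at 36.4, 51.1 and 34.8 CPM in siIrf1 0 d and 46.2 and 42.8 CPM in siCtr 0 d. The siCtr TGFbeta libraries were above all others. Ppp1r15a was not called with siIrf1 without TGFbeta as deposited, and with the GC trend removed its change turned to 0.45. It rose with TGFbeta in siCtr cells (0.70 ± 0.242, adjusted p = 0.049), a call lost without replicate 1 (0.80) or 3 (0.76) of siCtr 0 d, replicate 1 (0.70) or 3 (0.70) of siIrf1 0 d, replicate 2 (0.63) or 3 (0.92) of siCtr TGFbeta or replicate 1 (0.70) of siIrf1 TGFbeta. Under TGFbeta it fell with siIrf1 (-0.79 ± 0.217, adjusted p = 0.0302), lost in the fit of the TGFbeta libraries alone (adjusted p = 0.0559) and without replicate 2 (-0.69) or 3 (-0.98) of siCtr TGFbeta or replicate 1 (-0.79) or 3 (-0.67) of siIrf1 TGFbeta.

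Vldlr, a lipoprotein receptor induced by Atf4, was at 18.1, 11.1 and 18.4 CPM in siIrf1 TGFbeta and 9.94 and 9.23 CPM in siCtr TGFbeta. Vldlr without TGFbeta was at 27.3, 24.3 and 31.0 CPM in siIrf1 0 d and 14.3 and 24.0 CPM in siCtr 0 d. Each TGFbeta group was below the 0 d group with the same siRNA. Vldlr was not called with siIrf1 without TGFbeta as deposited, and with the GC trend removed its change turned to -0.35. It fell with TGFbeta in siCtr cells (-1.0 ± 0.313, adjusted p = 0.0335; -1.68 and 8.62e-06 with the GC trend removed). That call was lost without replicate 3 (-0.45) of siCtr 0 d, replicate 1 (-1.0) of siIrf1 0 d or replicate 2 (-0.97) or 3 (-0.88) of siCtr TGFbeta, and in the fit of the siCtr libraries alone (adjusted p = 0.0653). In siIrf1 cells it fell as well (-0.80 ± 0.253, adjusted p = 0.048), which was lost in the fit of the siIrf1 libraries alone (adjusted p = 0.0509) and held without siCtr 0 d replicate 1 or 3 but not without replicate 1 (-0.80), 2 (-0.88) or 3 (-0.71) of siIrf1 0 d, replicate 2 (-0.80) or 3 (-0.80) of siCtr TGFbeta or replicate 1 (-0.90), 2 (-0.59) or 3 (-0.92) of siIrf1 TGFbeta. Sesn2, a sestrin that restrains mTORC1, ranged over 27.6 to 57.8 CPM and fell with TGFbeta in siCtr cells (-0.87 ± 0.251, adjusted p = 0.0233), lost without replicate 1 (-0.75) or 3 (-0.83) of siCtr 0 d or replicate 2 (-0.90) or 3 (-0.69) of siCtr TGFbeta. Its change with siIrf1 without TGFbeta, not called as deposited, turned to 0.38 with the GC trend removed.

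Levels per kilobase of transcript were compared over the module. Calr, the highest, averaged 602 CPM per kilobase over the 10 libraries, Pdia3 334 and Hspa5 290, against 357 for Atf4, 317 for Psat1 and 2.26 for Vldlr, the lowest. Hspa5 was at 814, 800 and 921 CPM in siIrf1 TGFbeta and 941 and 1120 CPM in siCtr TGFbeta. Hspa5 without TGFbeta was at 660, 623 and 735 CPM in siIrf1 0 d and 361 and 619 CPM in siCtr 0 d. The TGFbeta libraries were above the 0 d libraries with either siRNA, and siCtr 0 d replicate 1 was the lowest of all. It rose with TGFbeta in siCtr cells (1.08 ± 0.236, adjusted p = 0.00633), in all 10 fits that left out 1 library and with the GC trend removed (1.09), though not in the fit of the siCtr libraries alone (adjusted p = 0.0547). In siIrf1 cells the change was 0.33 ± 0.191 (adjusted p = 0.281; 0.47 and 0.026 with the GC trend removed), and the difference of the effects did not pass (-0.75 ± 0.302, adjusted p = 0.225).

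Hsp90b1, the ER form of Hsp90, was at 443, 247 and 412 CPM in siIrf1 TGFbeta and 330 and 233 CPM in siCtr TGFbeta. Hsp90b1 without TGFbeta was at 229, 246 and 287 CPM in siIrf1 0 d and 50.2 and 144 CPM in siCtr 0 d. Both siCtr 0 d libraries were below all others, and the library with the lowest GC index, siCtr 0 d replicate 1, was lowest. It rose with TGFbeta in siCtr cells (1.54 ± 0.441, adjusted p = 0.0235; 1.28 and 0.00393 with the GC trend removed), lost without replicate 1 (1.01) of siCtr 0 d or replicate 2 (1.34) of siCtr TGFbeta and in the fit of the siCtr libraries alone (adjusted p = 0.0932). With siIrf1 without TGFbeta it rose too (1.39 ± 0.413, adjusted p = 0.0295), but not with the GC trend removed (0.56, adjusted p = 0.105) or without replicate 1 (0.81) of siCtr 0 d or replicate 1 (1.46), 2 (1.41) or 3 (1.29) of siIrf1 0 d. The part of GC content in that rise was not tested apart from this fit, and 10.3% of its exon bases are shared with 1810014B01Rik on the other strand.

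Dnajc3, a co-chaperone and inhibitor of PERK, was at 48.0, 30.5 and 45.7 CPM in siIrf1 TGFbeta and 35.0 and 28.9 CPM in siCtr TGFbeta. Dnajc3 without TGFbeta was at 25.8, 25.8 and 30.2 CPM in siIrf1 0 d and 10.4 and 19.6 CPM in siCtr 0 d. It followed the order of Hsp90b1, with siCtr 0 d below all other libraries. The rise with TGFbeta in siCtr cells (1.09 ± 0.315, adjusted p = 0.0243) was smaller with the GC trend removed (0.52, adjusted p = 0.0116) and lost without replicate 1 (0.75) of siCtr 0 d or replicate 2 (1.02) of siCtr TGFbeta and in the fit of the siCtr libraries alone (adjusted p = 0.0763). The rise with siIrf1 without TGFbeta (0.86 ± 0.293, adjusted p = 0.0482) was 0.01 with the GC trend removed (adjusted p = 0.967) and was lost in the fit of the 0 d libraries alone (adjusted p = 0.0608). Without siCtr 0 d replicate 1 it was 0.46, without siIrf1 0 d replicate 1, 2 or 3 it was 0.90, 0.90 or 0.78, without siCtr TGFbeta replicate 2 or 3 it was 0.88, and without siIrf1 TGFbeta replicate 1 or 3 it was 0.86, in no case called.

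The disulphide isomerases Pdia3 and Pdia4 also rose with TGFbeta in siCtr cells. Pdia4 was at 216, 248 and 285 CPM in siIrf1 TGFbeta and 338 and 381 CPM in siCtr TGFbeta. Pdia4 without TGFbeta was at 171, 180 and 177 CPM in siIrf1 0 d and 250 and 214 CPM in siCtr 0 d, with the TGFbeta above the 0 d libraries for either siRNA. It rose in siCtr cells (0.63 ± 0.17, adjusted p = 0.0169), lost without replicate 3 (0.62) of siCtr TGFbeta and in the fit of the siCtr libraries alone (adjusted p = 0.0516). In siIrf1 cells its rise (0.51 ± 0.139, adjusted p = 0.0247) was lost without replicate 1 (0.49), 2 (0.52) or 3 (0.51) of siIrf1 0 d or replicate 3 (0.40) of siIrf1 TGFbeta. Under TGFbeta it fell with siIrf1 (-0.52 ± 0.153, adjusted p = 0.0392), lost in the fit of the TGFbeta libraries alone (adjusted p = 0.0932) and without siIrf1 0 d replicate 1, 2 or 3 (-0.52 each), replicate 2 (-0.66) or 3 (-0.48) of siCtr TGFbeta or replicate 1 (-0.43) or 2 (-0.52) of siIrf1 TGFbeta.

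Pdia3 was at 1070, 736 and 1280 CPM in siIrf1 TGFbeta and 1060 and 1260 CPM in siCtr TGFbeta. Pdia3 without TGFbeta was at 804, 623 and 821 CPM in siIrf1 0 d and 501 and 681 CPM in siCtr 0 d. The siCtr groups did not overlap, while siIrf1 TGFbeta replicate 2 lay within the range of siIrf1 0 d. Its rise in siCtr cells (0.97 ± 0.269, adjusted p = 0.0197) was lost without replicate 1 (0.81) of siCtr 0 d or replicate 3 (0.91) of siCtr TGFbeta. In siIrf1 cells it was 0.45 ± 0.218 (adjusted p = 0.185; 0.59 and 0.0152 with the GC trend removed).

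Hyou1, an ER chaperone related to Hsp70, was at 161, 190 and 198 CPM in siIrf1 TGFbeta and 264 and 279 CPM in siCtr TGFbeta. Hyou1 without TGFbeta was at 142, 161 and 129 CPM in siIrf1 0 d and 247 and 201 CPM in siCtr 0 d. All siIrf1 libraries were below all siCtr libraries. It fell with siIrf1 without TGFbeta (-0.64 ± 0.159, adjusted p = 0.0145), lost with the GC trend removed (-0.28, adjusted p = 0.0536) and without replicate 1 (-0.49) of siCtr 0 d or replicate 1 (-0.63) or 3 (-0.56) of siIrf1 0 d. Under TGFbeta it fell with siIrf1 (-0.57 ± 0.159, adjusted p = 0.0328), lost in the fit of the TGFbeta libraries alone (adjusted p = 0.0586) and without replicate 1 (-0.57) of siIrf1 0 d, replicate 2 (-0.66) or 3 (-0.57) of siCtr TGFbeta or replicate 1 (-0.49) of siIrf1 TGFbeta.

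The other 8 chaperones were not called by edgeR in any of the 5 comparisons (of their 40 values 9 had an unadjusted p under 0.05 and 4 were called by DESeq2). Their CPM ranged over 5.58 to 20.7 for Dnajb9, 25.5 to 41.9 for Sdf2l1, 905 to 1590 for Calr, 114 to 758 for Canx, 211 to 356 for Pdia6, 40.8 to 72.8 for Creld2, 87.6 to 147 for Manf and 159 to 217 for Dnajb11. Canx, the membrane-bound lectin chaperone, and Calr, its soluble counterpart, had log2 fold changes of 1.16 ± 0.479 (adjusted p = 0.0906) and 0.28 ± 0.197 (adjusted p = 0.302) with TGFbeta in siCtr cells. With the GC trend removed they were 0.69 and 0.75, and that of Calr was called (adjusted p = 5.35e-04), as were those of Pdia6 (0.72), Manf (0.64) and Hyou1 (0.33). The change of Dnajb11 with siIrf1 without TGFbeta turned to 0.32 in that fit. Without siCtr 0 d replicate 3 Canx was called (2.33), and without both libraries that stand apart Canx and Calr were at 0.60 each. Falls were gained as well. Without siIrf1 TGFbeta replicate 2 Sdf2l1 was called lower with TGFbeta in siCtr cells (-0.52). With siIrf1 without TGFbeta that fit called Sdf2l1 (-0.48) and Creld2 (-0.41) lower and Dnajb9 (1.04) higher. Under TGFbeta Calr was called lower with siIrf1 without siCtr 0 d replicate 1 (-0.55) or 3 (-0.56). Calr, Creld2 and Manf were there at -0.64, -0.54 and -0.58 without both libraries that stand apart.

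**Figure D3:**
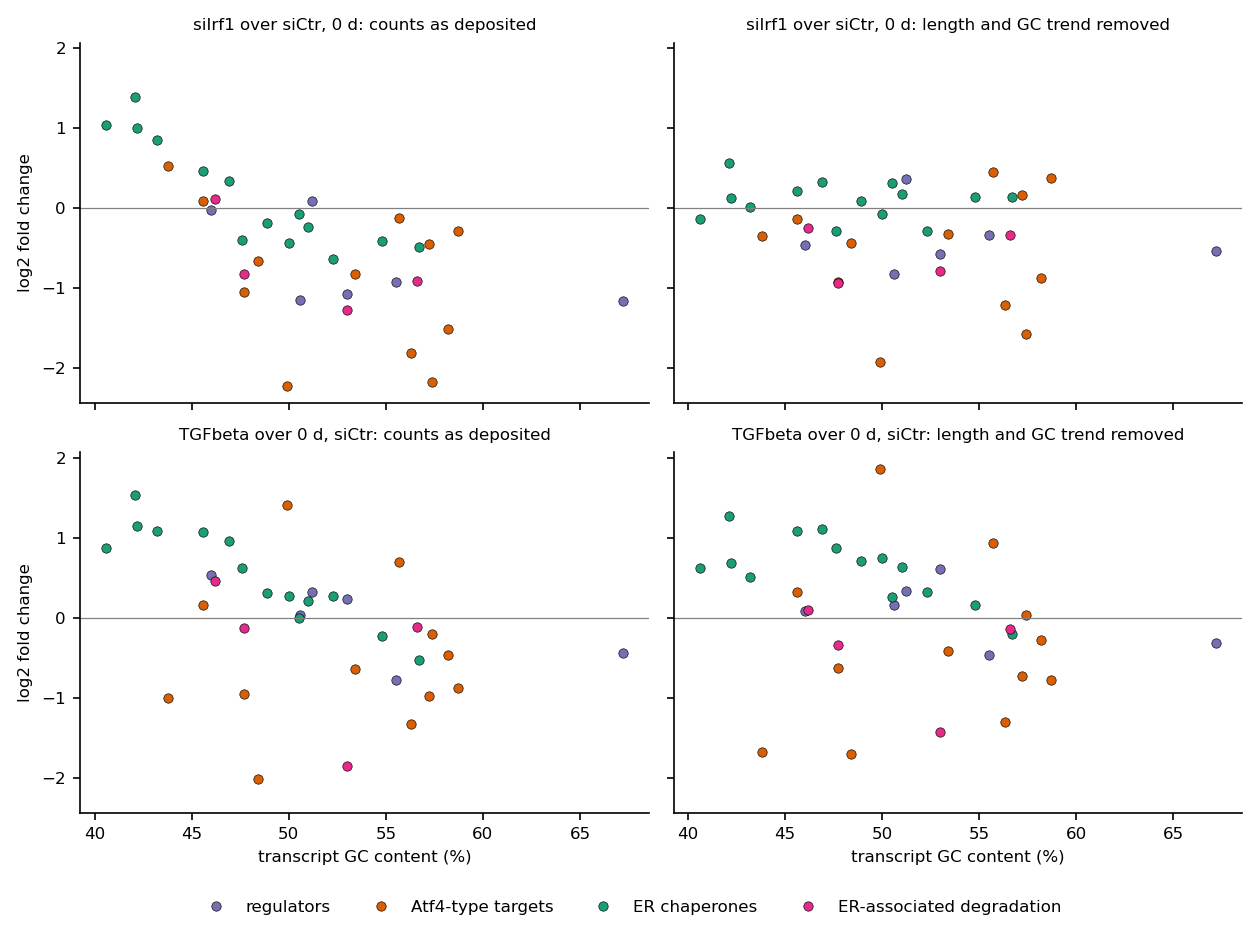
log2 fold change against transcript GC content (%) of the 36 members, coloured by role, for siIrf1 over siCtr at 0 d (top) and TGFbeta over 0 d in siCtr cells (bottom), as deposited (left) and with the length and GC trend removed (right). For siIrf1 over siCtr at 0 d, Dnajc3 at 0.86 and Hsp90b1 at 1.39 (left) lie at 0.01 and 0.56 (right), while Chac1, Nupr1 and Slc7a5 lie at -1.57, -1.92 and -1.21.

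In ER-associated degradation, Herpud1, a membrane protein that organises the retrotranslocation complex, was at 84.0, 94.1 and 82.9 CPM in siIrf1 TGFbeta and 50.8 and 59.2 CPM in siCtr TGFbeta. Herpud1 without TGFbeta was at 82.5, 79.4 and 82.4 CPM in siIrf1 0 d and 225 and 172 CPM in siCtr 0 d. Both siIrf1 groups lay close together, above siCtr TGFbeta and below siCtr 0 d. It fell with TGFbeta in siCtr cells (-1.85 ± 0.178, adjusted p = 3.60e-05) and was at 0.10 ± 0.141 in siIrf1 cells (adjusted p = 0.709). It fell with siIrf1 without TGFbeta (-1.28 ± 0.155, adjusted p = 6.64e-04) and rose with siIrf1 under TGFbeta (0.66 ± 0.161, adjusted p = 0.0178). The difference of the TGFbeta effects was the largest of the module (interaction 1.95 ± 0.225, adjusted p = 0.00162) and was called in all 10 fits that left out 1 library (adjusted p = 3.29e-04 with the GC trend removed). The rise under TGFbeta was lost without replicate 2 (0.50) or 3 (0.73) of siCtr TGFbeta and in the fit of the TGFbeta libraries alone (adjusted p = 0.0518).

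Syvn1 (HRD1), the ubiquitin ligase of that complex, was at 40.4, 50.6 and 47.4 CPM in siIrf1 TGFbeta and 77.9 and 75.7 CPM in siCtr TGFbeta. Syvn1 without TGFbeta was at 39.9, 52.3 and 39.7 CPM in siIrf1 0 d and 82.9 and 82.5 CPM in siCtr 0 d. All siIrf1 libraries were below all siCtr libraries. Syvn1 fell with siIrf1 without TGFbeta (-0.91 ± 0.173, adjusted p = 0.00441), but not with the GC trend removed (-0.34, adjusted p = 0.0671). It also fell with siIrf1 under TGFbeta (-0.74 ± 0.173, adjusted p = 0.0155). With the GC trend removed that call lay at the threshold (-0.39, adjusted p just under 0.05). In that fit 2 of the 4 genes of ER-associated degradation were called lower with siIrf1 under TGFbeta and 1 higher. The call of Syvn1 under TGFbeta was lost without replicate 2 (-0.77) or 3 (-0.80) of siCtr TGFbeta or replicate 1 (-0.65) of siIrf1 TGFbeta.

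Sel1l, the scaffold of Syvn1, was at 80.1, 61.5 and 101 CPM in siIrf1 TGFbeta and 101 and 120 CPM in siCtr TGFbeta. Sel1l without TGFbeta was at 70.4, 66.8 and 65.6 CPM in siIrf1 0 d and 128 and 111 CPM in siCtr 0 d. The 0 d groups did not overlap. It fell with siIrf1 without TGFbeta (-0.82 ± 0.199, adjusted p = 0.0127; -0.94 with the GC trend removed), lost without replicate 1 (-0.72) of siCtr 0 d. Edem1, a lectin that delivers misfolded glycoproteins for degradation, ranged over 89.9 to 170 CPM, with 0.46 ± 0.195 (adjusted p = 0.0963) and 0.49 ± 0.159 (adjusted p = 0.0533) for TGFbeta in siCtr and siIrf1 cells. Without siIrf1 TGFbeta replicate 2 it was called higher in siCtr (0.46) and siIrf1 cells (0.62), and without replicate 3 of that group in siCtr cells (0.46).

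The classes were set against each other as the mean log2 CPM of the 12 Atf4-type targets minus that of the 14 chaperones in each library, with no test. The difference was -1.22, -1.0 and -1.70 in siIrf1 TGFbeta, -1.04 and -1.20 in siCtr TGFbeta, -1.08, -0.97 and -1.24 in siIrf1 0 d and 0.07 and -0.12 in siCtr 0 d. The siCtr 0 d libraries stood apart from the other 8, which overlapped with each other. Group means were -1.31 ± 0.36, -1.12 ± 0.109, -1.09 ± 0.134 and -0.02 ± 0.137 (SD, n = 3, 2, 3 and 2), with a pooled SD of 0.23. The change in this difference was -1.10 for TGFbeta in siCtr cells and -1.07 for siIrf1 without TGFbeta. It was -0.21 for TGFbeta in siIrf1 cells and -0.19 for siIrf1 under TGFbeta, both within the pooled SD, and without replicate 3 of siIrf1 TGFbeta these were -0.02 and 0.01.

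The classes took different parts in these changes. Atf4-type targets averaged 6.52 ± 0.0595 log2 CPM in siCtr TGFbeta, 6.15 ± 0.0765 in siIrf1 0 d and 7.02 ± 0.0436 in siCtr 0 d, and chaperones 7.64 ± 0.0499, 7.25 ± 0.0663 and 7.05 ± 0.181. With siIrf1 without TGFbeta most of the difference lay in the Atf4-type targets. With the GC trend removed the group means of the difference were -1.23, -1.26, -0.92 and -0.26 in the same order of groups, and the change with siIrf1 without TGFbeta was -0.66. TGFbeta in siCtr cells then gave -1.0, with Atf4-type means of 6.46 in siCtr TGFbeta and 6.81 in siCtr 0 d and chaperone means of 7.71 in siCtr TGFbeta and 7.07 in siCtr 0 d.

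**Figure D4:**
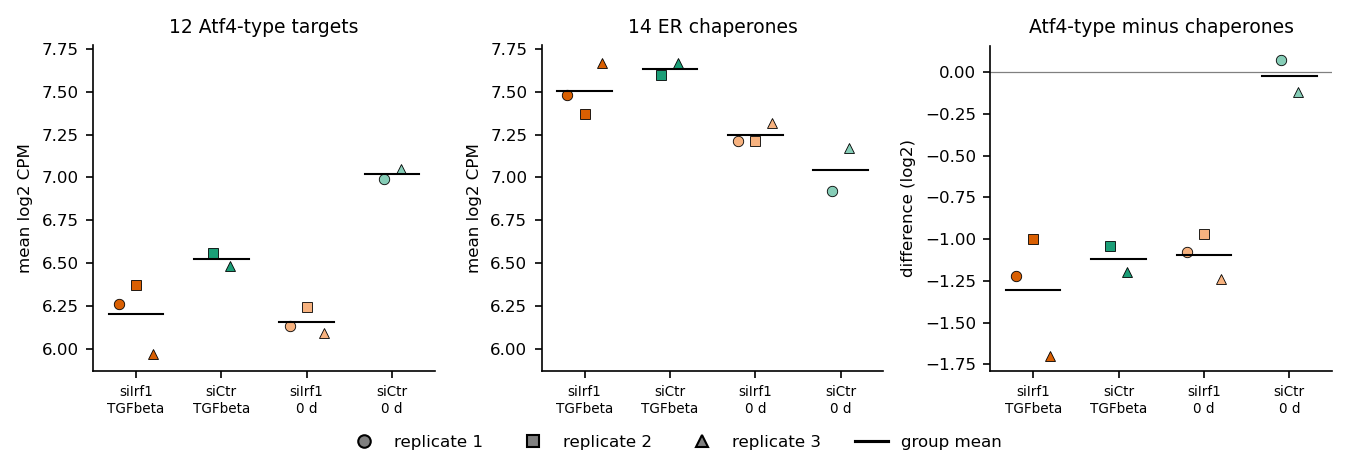
Mean log2 CPM of the 12 Atf4-type targets (left), of the 14 ER chaperones (middle) and their difference (right), 1 point per library; groups run along the horizontal axis, shapes give replicate 1, 2 or 3, and bars are group means. The siCtr 0 d libraries, at 0.07 and -0.12, stand above the other 8 in the difference, which lie at -0.97 or below.

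Genes of the pathway that are not members were counted in the same way. Of 21 further Atf4 pathway genes tested 11 fell and 2 rose with TGFbeta in siCtr cells, and 11 fell and 1 rose with siIrf1 without TGFbeta. In siIrf1 cells with TGFbeta 4 fell and 2 rose, under TGFbeta 6 fell and 0 rose with siIrf1 (unadjusted p under 0.05 for 0 rises, DESeq2 0), and 1 had a positive interaction. The shares that fell were 52.4% with TGFbeta in siCtr cells, 52.4% with siIrf1 without TGFbeta, 19% with TGFbeta in siIrf1 cells and 28.6% with siIrf1 under TGFbeta, against 16.3%, 15.5%, 9.71% and 8.28% of all genes. Rises were 9.52% with TGFbeta in siCtr cells and 4.76% with siIrf1 without TGFbeta, against 16.1% and 16.3% of all genes. Slc6a9, a glycine carrier, averaged 24.9 ± 0.808 CPM in siIrf1 TGFbeta, 58.4 ± 0.875 in siCtr TGFbeta, 47.8 ± 4.05 in siIrf1 0 d and 160 ± 0.769 in siCtr 0 d, and fell with TGFbeta in siCtr cells (-1.45 ± 0.157, adjusted p = 7.71e-05) and with siIrf1 without it (-1.74 ± 0.139, adjusted p = 1.43e-04) and under TGFbeta (-1.23 ± 0.139, adjusted p = 4.20e-04). Slc1a5, a glutamine carrier, fell with TGFbeta in siCtr cells (-1.90 ± 0.189, adjusted p = 4.49e-05) and in siIrf1 cells (-1.69 ± 0.153, adjusted p = 3.36e-05). Fgf21, a secreted stress hormone, was low, at 1.18 ± 0.105, 5.16 ± 0.094, 0.133 ± 0.0809 and 2.48 ± 0.734 CPM in the same order, and rose with TGFbeta in siIrf1 cells (3.07 ± 0.372, adjusted p = 2.12e-04) and fell with siIrf1 without TGFbeta (-4.14 ± 0.384, adjusted p = 2.26e-04) and under TGFbeta (-2.12 ± 0.302, adjusted p = 0.00139). Ddit4, an inhibitor of mTORC1, rose with TGFbeta in siCtr cells (1.73 ± 0.211, adjusted p = 1.75e-04) and in siIrf1 cells (1.53 ± 0.172, adjusted p = 1.27e-04). Under TGFbeta it fell with siIrf1 (-0.88 ± 0.185, adjusted p = 0.00963), lost without replicate 2 (-0.84) of siCtr TGFbeta. Slc1a4, a carrier of small neutral amino acids, fell with siIrf1 without TGFbeta (-1.07 ± 0.15, adjusted p = 0.00122), and its interaction (0.89 ± 0.216, adjusted p = 0.0494) held only without siCtr 0 d replicate 3 among the fits that left out 1 library (0.67 to 0.96 in the other 9, which left out siCtr 0 d replicate 1, siCtr TGFbeta replicates 2 and 3 and each siIrf1 library).

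Aminoacyl-tRNA synthetases, many of them known Atf4 targets, showed 4 falls of 12 with TGFbeta in siCtr cells and 7 with siIrf1 without TGFbeta (3 with the GC trend removed), or 33.3% and 58.3% against 16.3% and 15.5% of all genes. They showed 0 calls with TGFbeta in siIrf1 cells (unadjusted p under 0.05 for 2, DESeq2 0) and 1 fall with siIrf1 under TGFbeta, or 8.33% against 8.28%. With the GC trend removed, the 3 falls with siIrf1 without TGFbeta are 25% against 14.2% of all genes. In siIrf1 cells 1 rose and 3 fell with TGFbeta in that fit, or 8.33% and 25% against 15.9% and 16.4%. Without both libraries that stand apart 5 fell there, or 41.7% against 16.8%. Without those libraries 5 also fell with siIrf1 under TGFbeta, or 41.7% against 17.4% of all genes. Cars averaged 179 ± 4.55 CPM in siIrf1 0 d and 335 ± 31.0 CPM in siCtr 0 d (-0.90 ± 0.137, adjusted p = 0.00163). Of the other eIF2alpha kinases, phosphatase subunit and eIF2B genes, 3 of 12 rose with siIrf1 without TGFbeta (25% against 16.3% of all genes), the eIF2 subunits Eif2s2 (1.54) and Eif2s1 (1.59) and the adaptor Nck1 (1.19), and were not called with the GC trend removed (0.17, 0.57 and -0.17) or without siCtr 0 d replicate 1 (1.15, 0.95 and 1.00). Eif2s1 was also lost without replicate 1 (1.53) or 3 (1.53) of siIrf1 0 d, and Nck1 without replicate 1 (1.17) or 3 (1.05) of siIrf1 0 d.

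Among 32 other genes of ER folding, translocation and degradation 8 rose and 0 fell with TGFbeta in siCtr cells (unadjusted p under 0.05 for 1 fall, DESeq2 0), or 25% rises against 16.1% of all genes. Txndc5, a disulphide isomerase, averaged 617 ± 35.6 CPM in siCtr TGFbeta and 343 ± 76.5 CPM in siCtr 0 d (0.85 ± 0.174, adjusted p = 0.00433), and Pdia5 rose likewise (0.90 ± 0.182, adjusted p = 0.00402). In siIrf1 cells 2 rose, Sec24d (0.70) and Pdia5 (0.47), the second in none of the 10 fits that left out 1 library (0.40 to 0.52). That is 6.25% against 11.6% of all genes. With the GC trend removed 8 rose, or 25% against 15.9% of all genes. Without both libraries that stand apart 11 rose, or 34.4% against 19.6%. Sec24d, a coat subunit of the vesicles that carry cargo out of the ER, fell with siIrf1 without TGFbeta (-1.46 ± 0.165, adjusted p = 5.13e-04) and under TGFbeta (-1.60 ± 0.164, adjusted p = 2.50e-04). With siIrf1 3 of the 32 rose and 4 fell without TGFbeta, and 0 rose and 4 fell under it (unadjusted p under 0.05 for 1 rise, DESeq2 0). Without TGFbeta these are 9.38% and 12.5% against 16.3% and 15.5% of all genes, and the falls under it 12.5% against 8.28%. Of 6 ER stress transducers and their proteases 2 rose with TGFbeta in siCtr cells, or 33.3% against 16.1% of all genes. They were Creb3l2 (0.63 ± 0.197, adjusted p = 0.0328) and the very low Creb3l4 (1.81, at 0.907 ± 0.177 CPM in siCtr TGFbeta and 0.25 ± 0.0755 CPM in siCtr 0 d). Creb3l2 was lost without replicate 1 (0.61) of siCtr 0 d, replicate 3 (0.63) of siIrf1 0 d or replicate 2 (0.73) or 3 (0.69) of siCtr TGFbeta, and Creb3l4 without replicate 1 (1.60) of siCtr 0 d or replicate 3 (1.68) of siCtr TGFbeta.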

How the data were processed

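The deposited table holds raw whole-number read counts per gene (Entrez identifiers) for 10 libraries, per the labels. The submitters' processing notes name STAR and mm10 (GRCm38). No version, counting tool or use of strand is stated there. Symbols came from RefSeq GRCm38.p6 for 24374 genes and GENCODE M21 for 7; the 73 others held 0.211 to 1.5% of counts. The members and gene lists were chosen with earlier results of these data known.

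Counts were fitted with edgeR 4.0.16 in R 4.3.3 (TMM, filterByExpr, robust quasi-likelihood F test, 1 term per group, all 10 libraries), with Benjamini-Hochberg adjustment over 13135 genes per comparison and a threshold of 0.05. SE is the log2 fold change over the square root of F. The fit was tested on simulated data. Class means used log2 CPM with a prior count of 2. Named in full are Atf4, Xbp1, Ddit3, Hspa5, Trib3, Chac1 and up to 4 called members per class and comparison by adjusted p, and up to 3 other genes per list. Of these list genes, some are given by counts only.

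Alternatives were RLE size factors, no or a stricter filter (2 CPM in 3 libraries), DESeq2 1.42.0, compared groups alone, replicate numbers as a block, removal of each library's spline trend (5 degrees of freedom) on length and GC content (known for 95% of genes), both together, and each library left out. Leaving out both siIrf1 TGFbeta replicate 2 and siCtr 0 d replicate 1 was added after seeing the data, and it leaves 1 siCtr 0 d library. Of 12 pairs of same-numbered libraries, whose deviations correlated at -0.393 to 0.448, 8 were over 0.1. Between siIrf1 TGFbeta and siIrf1 0 d all 3 were (0.136, 0.448 and 0.302), so numbers were taken as pairs there, from the data. Both pairs of siIrf1 0 d and siCtr 0 d were over 0.1 too (0.124 and 0.333). There siIrf1 0 d replicate 2 has no siCtr 0 d partner, and the comparison is reported unpaired with the block fit beside it. Replicates correlated at 0.971 to 0.995 and differed by more than counting noise, with chi-square values of 24.8 to 318 per degree of freedom.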

Additional observations from a re-analysis of the deposited data

Results flagged for a closer look

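The response to TGFbeta differed between siIrf1 and siCtr cells by an interaction test for 3 members. Herpud1 had an interaction of 1.95 on the log2 scale, since its level was 87.0 ± 6.14 CPM in siIrf1 TGFbeta and 81.5 ± 1.77 CPM in siIrf1 0 d, but 55.0 ± 5.92 CPM in siCtr TGFbeta and 198 ± 37.6 CPM in siCtr 0 d. Slc7a5 had an interaction of 1.18, with 159 ± 6.69 and 175 ± 20.2 CPM in siIrf1 TGFbeta and siIrf1 0 d and 245 ± 0.329 and 614 ± 88.9 CPM in siCtr TGFbeta and siCtr 0 d. Nupr1 had an interaction of 1.2, with 49.6 ± 0.166 and 8.03 ± 0.373 CPM in siIrf1 TGFbeta and siIrf1 0 d and 101 ± 1.42 and 37.7 ± 10.2 CPM in siCtr TGFbeta and siCtr 0 d (SD, n = 3 for siIrf1 and 2 for siCtr groups). The GC index of the libraries moved with the siRNA, and with its trend removed the values were 1.58, 0.93 and 1.06.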

How the results depend on the processing

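Of 3384 member values compared with an alternative, 3053 kept their side of the threshold with no called value turning (140 of these differed in sign while called in neither fit), 180 lost a call, 144 gained one and 7 turned in direction. All 7 turned values are of siIrf1 without TGFbeta with the GC trend removed, namely Ppp1r15a (0.45), Sesn2 (0.38, and 0.36 with the replicate block), Vldlr (-0.35), Dnajb11 (0.32, and 0.31 with the block) and Dnajc3 (-0.03 with the block). With the trend removed, members called higher numbered 13, 12, 4, 3 and 5 in TGFbeta in siCtr cells, TGFbeta in siIrf1 cells, siIrf1 without TGFbeta, siIrf1 under TGFbeta and the interaction, and with the replicate block added 13, 13, 4, 4 and 1. Members called lower numbered 4 in TGFbeta in siIrf1 cells (6 with the block) and 2 in the interaction, and all genes called 4242 in TGFbeta in siIrf1 cells and 1166 in the interaction. The difference of Atf4-type targets and chaperones with siIrf1 without TGFbeta was -0.66. Groups fitted alone called 3, 1 and 0 members higher for TGFbeta in siCtr cells, siIrf1 without and siIrf1 under TGFbeta, and 1 and 4 lower for TGFbeta in siIrf1 cells and siIrf1 under TGFbeta. Of all genes 13.2%, 15.1% and 6.08% were higher and 8.71% and 6.34% lower in those fits. RLE size factors and the stricter filter each called 1 member lower for TGFbeta in siIrf1 cells, and these and no filter each called 1 higher for siIrf1 without TGFbeta. DESeq2 called 1171 genes and 5 members in the interaction. Without both libraries that stand apart, 4873 and 4897 genes were called for TGFbeta in siIrf1 cells and siIrf1 under TGFbeta, 11 and 4 members higher and 5 and 17 lower, 1 member was higher for siIrf1 without TGFbeta, and the class difference of the interaction was 0.63. Apart from what the settings' construction shows (fewer samples, other genes tested), the cause was not tested.

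With the replicate block alone 9, 7, 4, 1 and 3 members were called higher and 9, 3, 18, 8 and 0 lower in the 5 comparisons in that order. Over all genes that fit called 4347 for TGFbeta in siCtr cells and 3046 for TGFbeta in siIrf1 cells, in either direction. Shares by direction are not given for it, so these member counts have no background beside them. The block lost Vldlr and gained Cebpb, Dnajb9 and Edem1 for TGFbeta in siCtr cells, gained Phgdh, Hspa5, Dnajb9, Sdf2l1 and Creld2 for siIrf1 without TGFbeta, lost Pdia4 and Hyou1 for siIrf1 under TGFbeta, and beside these and the 3 gains given for TGFbeta in siIrf1 cells changed no member's call. Leaving out each library in turn gave, in the same order, 2297 to 5159, 1957 to 3300, 1700 to 5192, 762 to 2978 and 122 to 1590 genes called, 3 to 9, 2 to 8, 0 to 5, 0 to 2 and 1 to 4 members higher and 3 to 10, 1 to 2, 12 to 17, 2 to 13 and 0 to 3 lower. The class difference ranged over -1.2 to -1.0, -0.37 to -0.02, -1.17 to -0.97, -0.34 to 0.01 and 0.73 to 1.08.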
